A study of Oryza sativa with 12 samples.

Results

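MADS-box genes encode DNA-binding transcription factors that act in the timing of flowering and in the identity of floral organs, and several work outside the flower. The 31 rice genes described here were chosen by name. Each was tied by the array annotation to a RefSeq symbol or synonym made of MADS and a number, through probe sets listed for exactly 1 gene. They were 31 of 17905 genes with such a probe set, and they had 39 of the 57194 probe sets tested. For 27 genes there was 1 probe set, and for OsMADS14, OsMADS15, OsMADS23 and OsMADS27 there were several, of which the brightest by its mean over 12 arrays stood for the gene.

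RNA from rice flag leaves, the last leaf formed below the panicle, was measured on 12 Affymetrix arrays, 3 for each of 4 groups. WT_watered were wild-type plants kept watered, and WT_stressed were wild-type plants from which water had been withheld for 3 days. IPT_watered and IPT_stressed were plants carrying PSARK::IPT under the same conditions. All plants were 10 weeks old, and the stress was imposed before the flowers opened. In PSARK::IPT a promoter of a senescence-associated receptor kinase gene drives isopentenyltransferase, an enzyme of cytokinin synthesis. The labels call the replicates biological but give neither the plants behind each array nor the number of transgenic lines, so p-values measure the spread between these samples. The transgene itself was not measured by a probe set used here, so the genotype labels could not be checked by it.

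MADS-box proteins bind DNA as dimers or larger complexes, and floral organs form where different classes of them are combined. In a leaf, members of the SOC1 and SVP clades are known for acting on flowering time. The mobile flowering signal Hd3a is made in leaves, moves to the shoot apex and there turns on members of the APETALA1/FRUITFULL clade.

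Values are log2 RMA values, in which 1 unit is a doubling. Probe sets bind their targets unequally, so values of different genes were not compared as levels. A gene was taken to be above background on an array when it lay above the 95th percentile of 106 probe sets for foreign sequences on that array. That level ran from 3.14 to 3.21 in IPT_watered, 3.26 to 3.50 in IPT_stressed, 3.42 to 3.71 in WT_watered and 3.82 to 4.25 in WT_stressed. It was thus higher on every array labelled wild type under stress than on the arrays of the other groups, and dim genes were harder to detect there. The 106 were 42 bacterial controls and 64 reporters, and 2 reporters described below were bright on stressed arrays. Over the bacterial controls alone the 95th percentile averaged 3.17 in WT_stressed, 3.02 in WT_watered, 2.72 in IPT_stressed and 2.81 in IPT_watered. Calls against background below hold for the level used, and the lower level gives more arrays above it.

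Other measures also moved with the labelled groups. One of the 2 GAPDH controls read 5.99 ± 1.06 (SD, n = 3) higher at its 3' than at its 5' probe set in WT_watered. The same difference was 6.90 ± 0.50 in WT_stressed, 3.64 ± 0.17 for the watered PSARK::IPT plants and 3.86 ± 0.48 for the stressed ones. These values followed the labelled genotype. The other GAPDH control did not: its differences were 0.76 ± 0.19 in WT_watered, 0.65 ± 0.44 in WT_stressed, 0.46 ± 0.14 for the watered and 0.52 ± 0.13 for the stressed PSARK::IPT plants. The actin control did, at 3.84 ± 0.41 and 3.69 ± 0.28 in watered and stressed wild type, and 1.77 ± 0.31 and 2.40 ± 0.52 in PSARK::IPT plants. The mean of the hybridization spike-in controls was 10.58 ± 0.21 and 11.50 ± 0.29 in wild type, watered and stressed, and 8.09 ± 0.23 and 8.09 ± 0.28 in PSARK::IPT plants, with no overlap between genotypes. Genotype, RNA integrity and hybridization as these controls read them cannot be told apart. A reporter probe set for a foreign sequence (K01193) followed the labelled water condition instead. It read 8.98 ± 0.24 in WT_stressed and 10.16 ± 0.27 in IPT_stressed, 2.08 ± 0.08 in IPT_watered and 3.48 ± 2.21 in WT_watered, where replicate 3 alone read 6.03. A reporter for AF292559 read 7.68 ± 0.60 in WT_stressed and 7.97 ± 0.46 in IPT_stressed, 2.11 ± 0.13 in IPT_watered and 2.61 ± 0.60 in WT_watered. What these reporters were for is not given in the sources used here. Every group and direction below is as labelled, and would change if the labels were exchanged.

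The tissue label was checked with marker genes. Of 9 photosynthesis genes on the array, 8 were above background on all 12 arrays. Of 6 panicle and floral markers, APO2, FZP and TH1 were below background on all 12 and MSP1 was above on all 12. Of 9 anther and pollen markers, 4 were below background on every array and PTC1 was above on every array. Of 4 root markers, 3 were below on all 12 and LSI1 was above on all 12. In bulk tissue, fewer cells of a type and less RNA per cell cannot be told apart.

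The flag leaf showed 9 of the 31 MADS-box genes above background on all 12 arrays: OsMADS18, OsMADS56, OsMADS22, OsMADS14, OsMADS50, OsMADS55, OsMADS1, OsMADS47 and OsMADS4. Another 6 were above background on some arrays: OsMADS16 on 11, OsMADS57 on 10, OsMADS26 on 9, OsMADS2 on 6, OsMADS27 on 5 and OsMADS15 on 2. The remaining 16 were above it on no array. Of these 16, OsMADS5 read 3.04 and 2.98 on IPT_stressed replicates 1 and 3, above the 95th percentiles of the bacterial controls alone (2.77 and 2.67). OsMADS17 read 3.22 on WT_stressed replicate 1, above the bacterial level of 3.17 there. Counted by group, 13 members were above background on all 3 arrays of IPT_watered, 13 on those of IPT_stressed, 12 on those of WT_watered and 9 on those of WT_stressed. With the brightest foreign probe set as the background, these counts were 11, 0, 4 and 2, and that probe set was at 10.16 ± 0.27 in IPT_stressed. On the stressed arrays it was the K01193 reporter.

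**Figure D1:**
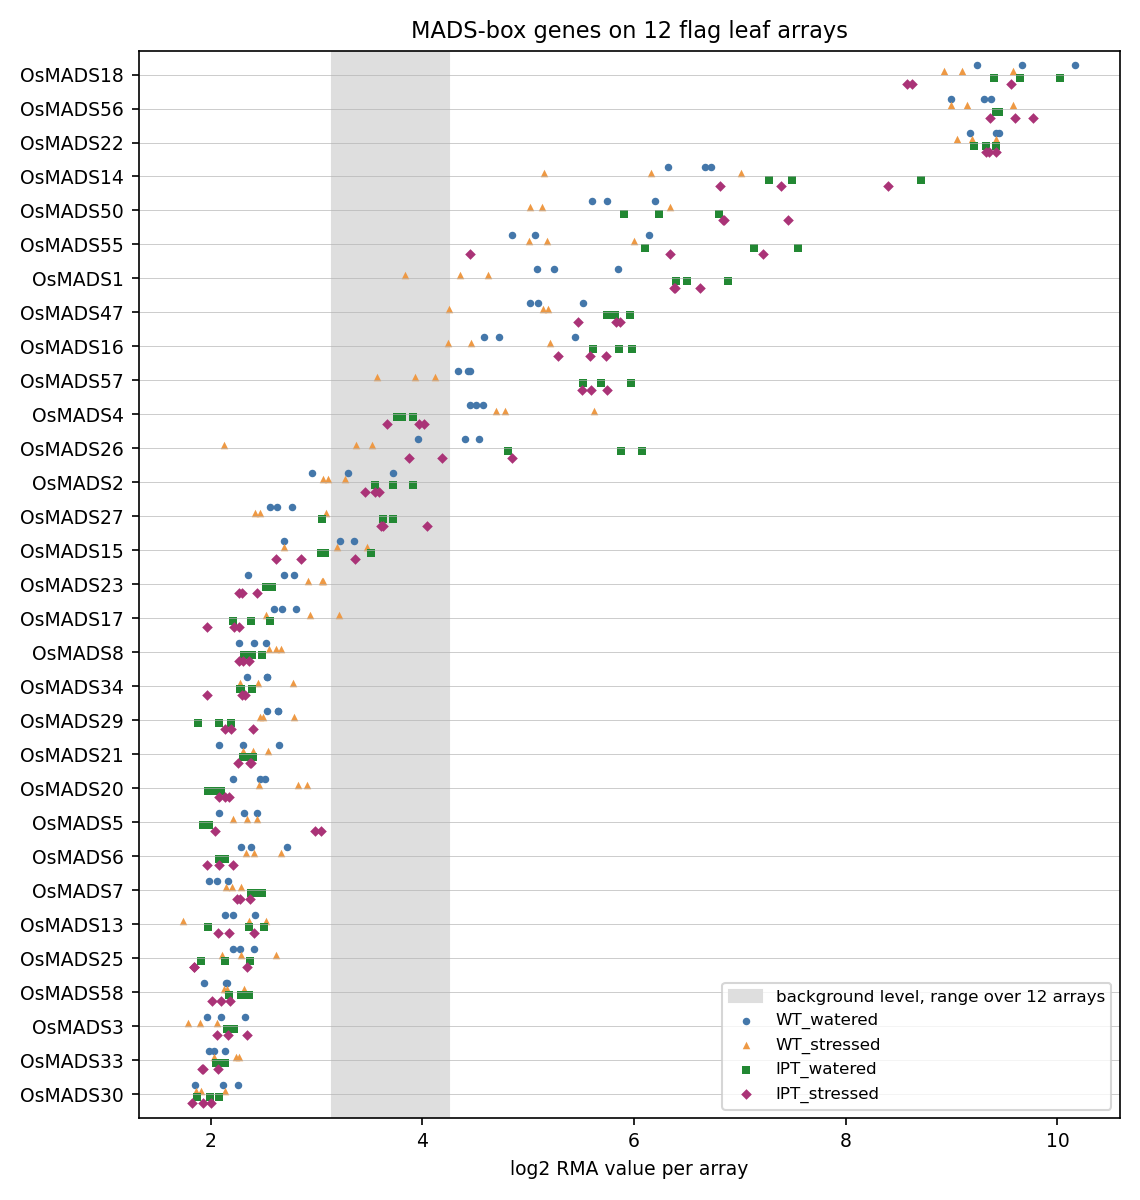
Log2 RMA values (horizontal axis) of the 31 MADS-box genes (rows, by mean over the 12 arrays) on each of the 12 arrays (points, marked by labelled group). The grey band is the range of the background level over the 12 arrays. The 3 brightest rows, OsMADS18, OsMADS56 and OsMADS22, have means over 12 arrays of 9.38, 9.37 and 9.31, and the 16 genes from OsMADS23 down were above background on no array.

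Both members of the SOC1 clade and all 3 of the SVP clade were above background on all 12 arrays, as were OsMADS14 and OsMADS18 among 4 of the APETALA1/FRUITFULL clade. All 4 genes of the AGAMOUS clade, which give stamens, carpels and ovules their identity, both of the AGL6 clade and both of the B-sister clade were below background on every array. Of 5 SEPALLATA genes, which act with all floral organ classes, 4 were below on every array and OsMADS1 was above on every array. Other clades were mixed. Of 4 AGL17-clade genes 2 were below on every array, as was 1 of 2 of the AGL12 clade, and of 3 B-function genes 1 was above on all 12 arrays.

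Whether withholding water changed these genes was asked within each labelled genotype. No member passed the test in either. In wild type 0 of 31 were called at an adjusted p under 0.05 (0.42% of all probe sets were), and 6 had groups that did not overlap, which is 19.4% against 18.1% of all probe sets. In PSARK::IPT plants 0 of 31 were called (0.177% of all), and 4 had groups that did not overlap, 12.9% against 20.3%. At an unadjusted p under 0.05 limma gave 6 members in wild type (19.4% against 20.1% of all) and 3 in PSARK::IPT plants (9.68% against 8.02%). The median change of the members was 0.0069 in wild type, against 0.041 for all probe sets, and -0.12 in PSARK::IPT plants, against -0.032.

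The labelled genotypes differed in many members, at about the rate of the whole array. Under watering 8 of 31 members were called, 25.8% against 19.2% of all probe sets. OsMADS1, OsMADS16, OsMADS57, OsMADS26, OsMADS27 and OsMADS7 were higher in IPT_watered than in WT_watered (6 of 31; 10.3% of all probe sets were called higher), and OsMADS4 and OsMADS29 were lower (8.9% of all). Under stress 14 of 31 were called, 45.2% against 46.1% of all. OsMADS14, OsMADS50, OsMADS1, OsMADS47, OsMADS16, OsMADS57, OsMADS26 and OsMADS27 were higher in IPT_stressed than in WT_stressed (8 of 31; 19.3% of all). OsMADS4, OsMADS23, OsMADS17, OsMADS8, OsMADS20 and OsMADS6 were lower (26.7% of all), and of these 6 all but OsMADS4 were below background on all 12 arrays.

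OsMADS1, OsMADS16, OsMADS57, OsMADS4, OsMADS26 and OsMADS27, 6 members, were called in both genotype comparisons, each in the same direction in both. They were 19.4% of the 31, and 16.2% of all probe sets were called in both, 99.8% of those in the same direction. These 2 comparisons share no arrays, whereas each shares arrays with both stress comparisons. Groups did not overlap in 16 members under watering (51.6% against 42.4% of all probe sets) and in 15 under stress (48.4% against 55.4%). With the GAPDH control that followed the labelled genotype as a covariate, 0 of 31 members were called in either genotype comparison, and 39 and 129 of all probe sets were. Because that control ran with genotype, such a fit separates them poorly. A call lost in it does not show that the difference was absent. With the other GAPDH control, an alternative chosen after seeing the data, 6 members were called under watering and 12 under stress. With the actin control, chosen in the same way, 0 were called under watering and 3 under stress (OsMADS1, OsMADS57 and OsMADS4).

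The stress effects of the 2 labelled genotypes were also compared with each other. No member and no probe set passed that test in limma (0% of all), although 3 members (9.68%) and 8178 of all probe sets (14.3%) had an unadjusted p under 0.05. The F test over the 4 groups called 13 of 31 members, 41.9% against 42.1% of all probe sets.

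**Figure D2:**
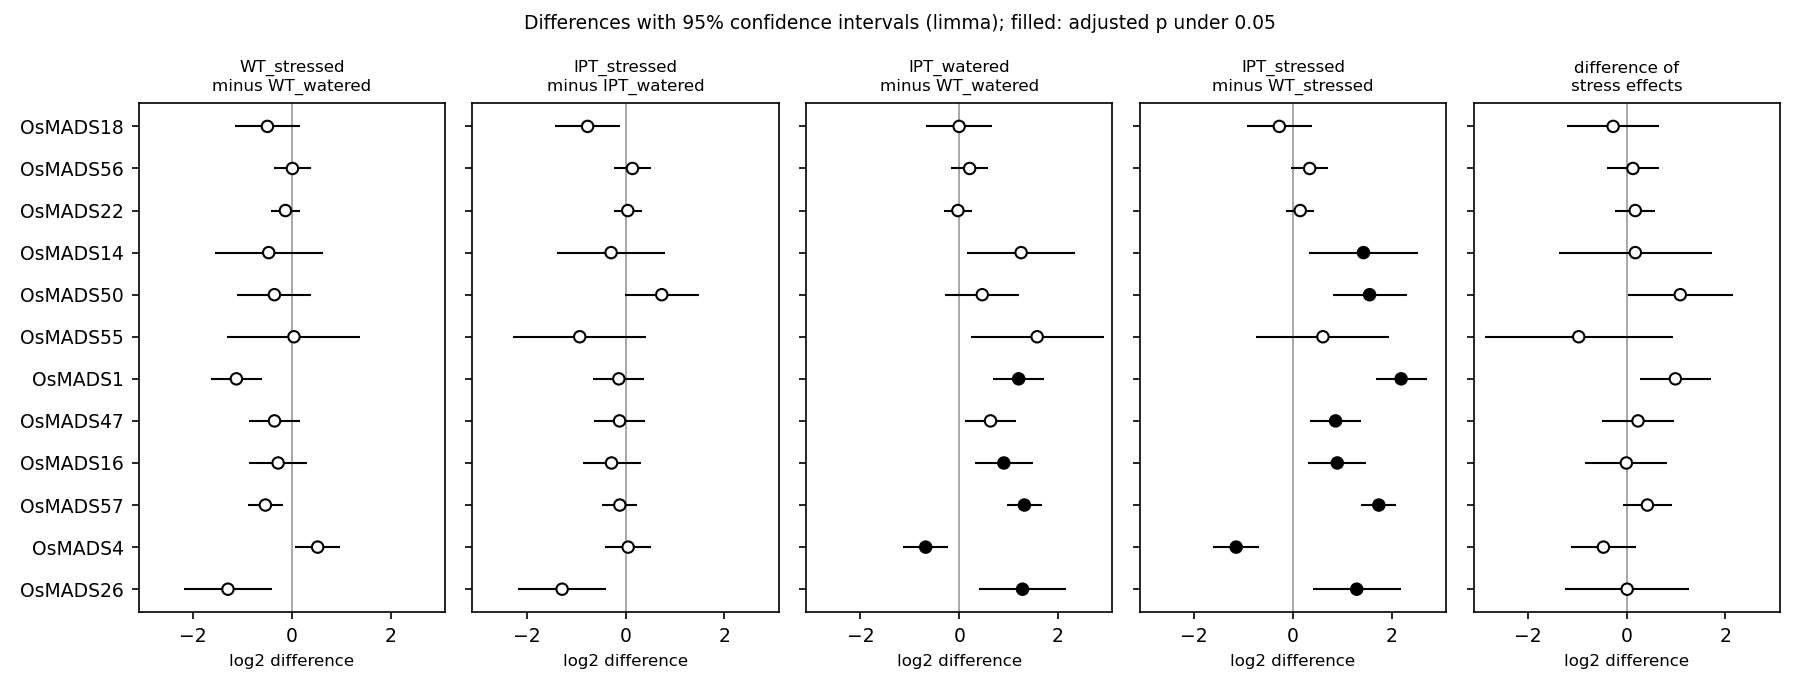
Log2 differences (horizontal axis, with 95% confidence intervals from limma) of 12 MADS-box genes in the 5 comparisons, filled where the adjusted p was under 0.05. Filled points appear in the genotype comparisons and in none of the other 3, and OsMADS4 lies on the opposite side of 0 from the other filled points. For OsMADS26 all WT_stressed arrays were below background, so its points against that group do not give a size.

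OsMADS50 and OsMADS56 are the SOC1-type genes. In rice OsMADS50 promotes flowering in long days and OsMADS56 delays it. OsMADS50 read 6.20, 5.60 and 5.74 in WT_watered and 6.34, 5.02 and 5.13 in WT_stressed. The values were 5.91, 6.23 and 6.80 in IPT_watered, with 6.84, 6.85 and 7.45 in IPT_stressed. All 3 IPT_stressed arrays lay above all WT_stressed arrays, whereas the watered groups overlapped. The stressed genotypes differed by 1.55 (SE 0.34, adjusted p = 0.00399), a 2.93-fold difference, and the watered ones by 0.47 (95% interval -0.28 to 1.22, adjusted p = 0.365). Its stress effects differed between genotypes by 1.09 (SE 0.49), which did not pass (adjusted p = 0.341). The call under stress was lost after quantile normalization (1.02, adjusted p = 0.054).

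OsMADS56 read 9.42, 9.44 and 9.45 in IPT_watered and 9.60, 9.77 and 9.36 in IPT_stressed, beside 9.30, 9.38 and 8.99 in WT_watered and 9.14, 8.99 and 9.58 in WT_stressed. The groups overlapped widely within wild type, and the 4 group means spanned 0.35. No comparison passed for it in the main fit. The stressed genotype comparison was called with array medians equal and without WT_stressed replicate 3. The stressed genotypes differed by 0.34 with an interval of -0.03 to 0.71, so that a difference above 0.71 lay outside the interval for this gene.

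The SVP-type genes OsMADS22, OsMADS47 and OsMADS55 are known in rice for restraining brassinosteroid responses and for effects on meristem identity. OsMADS22 read 9.21, 9.33 and 9.42 in IPT_watered and 9.33, 9.41 and 9.35 in IPT_stressed, beside 9.17, 9.45 and 9.41 in WT_watered and 9.05, 9.19 and 9.41 in WT_stressed. Among the members above background on all 12 arrays it was the steadiest, between 9.05 and 9.45, with group means that spanned 0.15. Its genotype difference had an interval of -0.31 to 0.26 under watering and -0.14 to 0.43 under stress.

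OsMADS47 read 5.52, 5.09 and 5.02 in WT_watered and 5.14, 5.18 and 4.25 in WT_stressed. It read 5.74, 5.82 and 5.96 in IPT_watered and 5.82, 5.87 and 5.47 in IPT_stressed. Every IPT array lay above every wild-type array except WT_watered replicate 1, which at 5.52 lay above IPT_stressed replicate 3. The genotype difference was 0.86 (SE 0.24, adjusted p = 0.0118) under stress, and 0.63 (SE 0.24, adjusted p = 0.0811) under watering. After quantile normalization the call under stress was lost (0.36, adjusted p = 0.394).

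OsMADS55 varied more among arrays of a group than its relatives. It read 5.06, 4.85 and 6.14 in WT_watered and 5.01, 5.18 and 5.99 in WT_stressed. The values were 6.11, 7.55 and 7.13 in IPT_watered, with 4.45, 7.21 and 6.34 in IPT_stressed. The lowest array of all was IPT_stressed replicate 1, in the same group as replicate 2 at 7.21. The watered genotypes differed by 1.58 (SE 0.62), which did not pass (adjusted p = 0.0944).

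**Figure D3:**
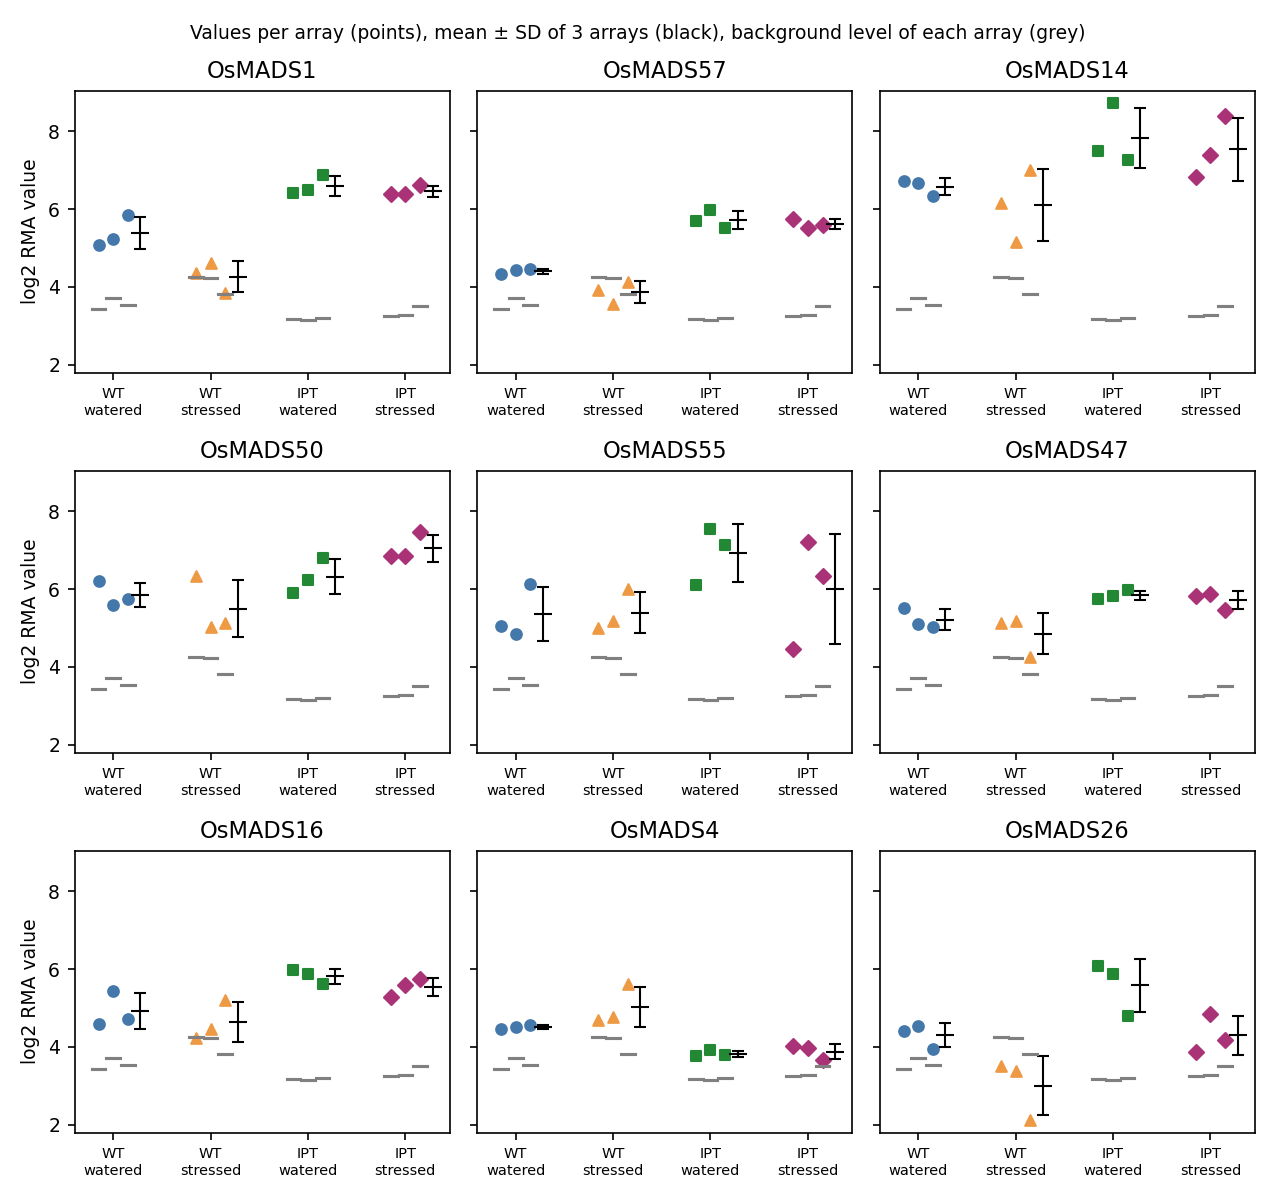
Log2 RMA values of MADS-box genes on each array (points), by labelled group, with the group means and SD (n = 3), for 9 genes. OsMADS1 and OsMADS57 have no wild-type array as high as any PSARK::IPT array and OsMADS4 has no PSARK::IPT array as high as any wild-type array. Grey lines mark the background level of each array.

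The APETALA1/FRUITFULL genes OsMADS14, OsMADS15, OsMADS18 and OsMADS20 are known for their part in the change of the shoot apex into a panicle. OsMADS18 read 9.66, 10.17 and 9.24 in WT_watered and 9.58, 8.92 and 9.09 in WT_stressed. The values were 9.65, 10.02 and 9.40 in IPT_watered, with 8.62, 9.56 and 8.58 in IPT_stressed. The groups overlapped. Its stress effect in PSARK::IPT plants was -0.77 (SE 0.30, adjusted p = 0.508), and under watering the genotype difference had an interval of -0.66 to 0.66.

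OsMADS14 read 6.73, 6.67 and 6.32 in WT_watered and 6.16, 5.15 and 7.01 in WT_stressed. The values were 7.49, 8.71 and 7.27 in IPT_watered, with 6.81, 7.39 and 8.40 in IPT_stressed. All watered IPT arrays lay above all watered wild-type arrays, and the stressed groups overlapped at WT_stressed replicate 3. Under stress the genotypes differed by 1.43 (SE 0.50, adjusted p = 0.0361), and under watering by 1.25 (SE 0.50, adjusted p = 0.102). The call under stress was lost without WT_stressed replicate 1 or 2 or IPT_stressed replicate 2 or 3 (adjusted p 0.0629 to 0.147), with only the 6 stressed arrays in the fit (adjusted p = 0.0694) and after quantile normalization (0.92, adjusted p = 0.203).

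The 4 probe sets of OsMADS14 did not agree. The brightest gave the values above. The probe sets with the name endings S1_x_at and S1_a_at were higher in PSARK::IPT plants under watering (adjusted p = 0.00242 and 0.00814) and under stress (adjusted p = 0.000428 and 0.00117). For the first of these the differences were 2.25 and 2.56, and for the second no size is given because 1 of 6 wild-type arrays was above background. The remaining probe set differed by 0.08 and 0.26 (adjusted p = 0.964 and 0.829), and on it WT_stressed replicate 3 read 7.30 where the other 2 arrays of its group read 3.19 and 3.44. Which transcripts each probe set reads is not given in the sources used here.

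**Figure D4:**
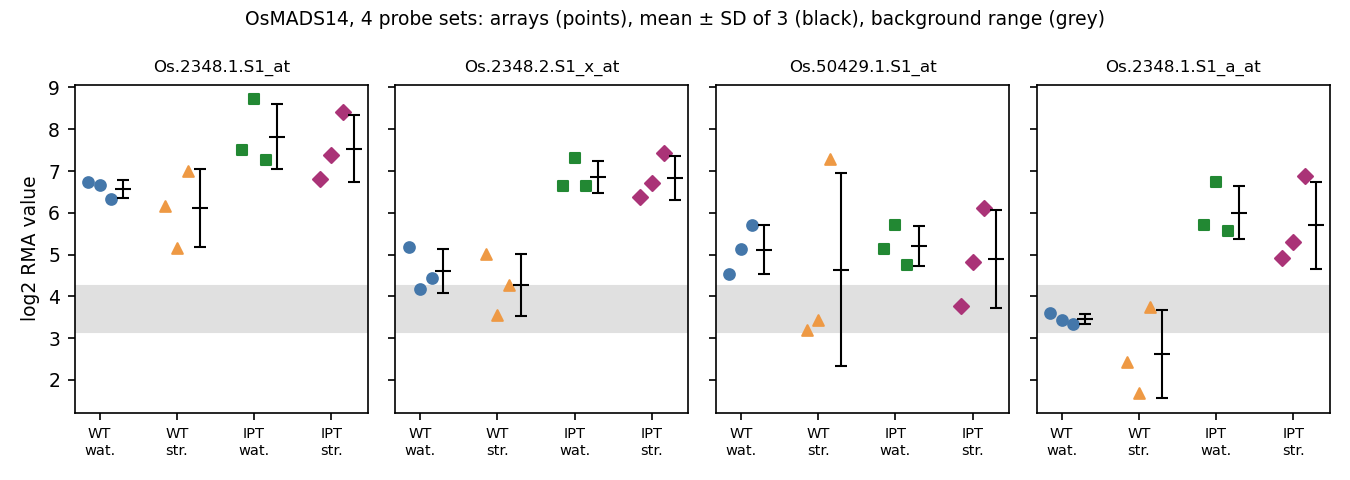
Log2 RMA values of the 4 probe sets of OsMADS14 on each array, by labelled group, with group means. In 3 of them the PSARK::IPT means lie clearly above the wild-type means in both water conditions, and in the remaining one the genotype differences were 0.08 and 0.26.

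OsMADS15 read between 2.61 and 3.52 on the 12 arrays. OsMADS20 read 1.98, 2.10 and 2.03 in IPT_watered and 2.13, 2.08 and 2.18 in IPT_stressed, beside 2.46, 2.21 and 2.51 in WT_watered and 2.45, 2.83 and 2.91 in WT_stressed. OsMADS15 was above background on 2 arrays, 1 in each PSARK::IPT group, and OsMADS20 on none, so no fold was computed for either.

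OsMADS1 is a SEPALLATA-type gene that in rice shapes the lemma and palea and fixes the floret meristem. It read 5.08, 5.24 and 5.85 in WT_watered (mean 5.39 ± 0.41, SD, n = 3) and 4.35, 4.62 and 3.83 in WT_stressed (4.27 ± 0.40). It read 6.40, 6.50 and 6.88 in IPT_watered (6.59 ± 0.26) and 6.38, 6.37 and 6.62 in IPT_stressed (6.46 ± 0.14). All 6 IPT arrays lay above all 6 wild-type arrays, and within wild type all stressed arrays lay below all watered ones. WT_stressed replicate 3 at 3.83 was barely above its background level of 3.82.

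OsMADS1 was 2.30-fold higher in IPT_watered than in WT_watered (log2 1.20, SE 0.24, adjusted p = 0.00494). It was 4.57-fold higher in IPT_stressed than in WT_stressed (log2 2.19, SE 0.24, adjusted p = 5.68e-05). Its stress change in wild type was -1.12 (95% interval -1.64 to -0.61), which did not pass (adjusted p = 0.0609), and in PSARK::IPT plants it was -0.14 (-0.65 to 0.38). The difference between these stress effects, 0.99 (SE 0.33), did not pass either (adjusted p = 0.267). With the GAPDH measure as a covariate the genotype differences were 0.53 (adjusted p = 0.579) and 1.32 (adjusted p = 0.189), and with actin 1.45 (adjusted p = 0.49) and 2.35 (adjusted p = 0.0102). Under every other alternative tried both stayed called. In the panicle and floral marker list, set beside OsMADS1, the mean per array ran from 3.14 to 3.28 in IPT_watered and 3.05 to 3.19 in IPT_stressed. It ran from 3.23 to 3.55 in WT_watered and 3.37 to 3.51 in WT_stressed. These means rest mostly on dim probe sets. Over all probe sets with a mean under 5, the median genotype difference was -0.12 under watering and -0.28 under stress. Of the 6 markers only MSP1 was above background on all 12 arrays, with means of 5.66 and 5.11 in watered and stressed wild type and 5.63 and 5.31 in PSARK::IPT plants. The part of these cells in the result was not tested.

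The other SEPALLATA genes, OsMADS5, OsMADS7, OsMADS8 and OsMADS34, lay between 1.92 and 3.04 on all arrays. OsMADS7 read 2.38, 2.49 and 2.43 in IPT_watered and 2.27, 2.37 and 2.25 in IPT_stressed, beside 2.16, 1.98 and 2.06 in WT_watered and 2.20, 2.29 and 2.14 in WT_stressed. OsMADS8 read 2.39, 2.31 and 2.48 in IPT_watered and 2.27, 2.31 and 2.36 in IPT_stressed, beside 2.26, 2.53 and 2.41 in WT_watered and 2.66, 2.62 and 2.55 in WT_stressed. OsMADS7 was called higher in IPT_watered (adjusted p = 0.0361) and OsMADS8 lower in IPT_stressed (adjusted p = 0.047), each with all 12 arrays below background. The call was lost in 9 of 16 alternatives for OsMADS7 and in 13 of 16 for OsMADS8, whose adjusted p reached 0.853 after quantile normalization. OsMADS5 read 3.04 and 2.98 on IPT_stressed replicates 1 and 3 and 2.04 on replicate 2, and its stress change in PSARK::IPT plants did not pass (adjusted p = 0.304).

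The B-function genes OsMADS16, OsMADS4 and OsMADS2 specify lodicules and stamens in rice. OsMADS16 read 4.58, 5.44 and 4.72 in WT_watered and 4.24, 4.46 and 5.21 in WT_stressed. The values were 5.98, 5.86 and 5.61 in IPT_watered, with 5.28, 5.58 and 5.73 in IPT_stressed. Within each water condition every PSARK::IPT array lay above every wild-type array. The genotype difference was 0.90 under watering (SE 0.27, adjusted p = 0.0358) and 0.90 under stress (SE 0.27, adjusted p = 0.0181). The call was lost under watering without WT_watered replicate 1 or 3 or IPT_watered replicate 1 or 2, and under stress without WT_stressed replicate 1 or 2 or IPT_stressed replicate 3 (adjusted p 0.0574 to 0.123). Quantile normalization ended both (0.61, adjusted p = 0.19, and 0.50, adjusted p = 0.228).

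Among the called members above background on all 12 arrays, OsMADS4 was the one lower in PSARK::IPT plants. It read 4.45, 4.50 and 4.57 in WT_watered and 4.69, 4.78 and 5.62 in WT_stressed. The values were 3.76, 3.91 and 3.81 in IPT_watered, with 4.02, 3.96 and 3.66 in IPT_stressed. All 6 IPT arrays lay below all 6 wild-type arrays. The genotype difference was -1.15 under stress (SE 0.21, adjusted p = 0.00137) and -0.68 under watering (SE 0.21, adjusted p = 0.0421), and the call under watering was lost without any 1 of the 6 watered arrays (adjusted p 0.0817 to 0.122), with array medians equal (adjusted p = 0.0878) and with the replicate block (adjusted p = 0.0548). The stress change in wild type was 0.52 (adjusted p = 0.2).

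OsMADS2, which acts in the lodicule, read between 2.96 and 3.91 and passed no test in the main fit. Its genotype differences were 0.40 (adjusted p = 0.133) under watering and 0.39 (adjusted p = 0.0864) under stress. The difference under stress was called after quantile normalization, with array medians equal, and without WT_watered replicate 2 or 3. The difference under watering was called with array weights and without WT_watered replicate 3. OsMADS2 thus lay near the threshold. It lay above background on all 3 arrays of IPT_watered and on none of WT_stressed.

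OsMADS57, OsMADS27, OsMADS23 and OsMADS25 belong to the AGL17 clade. OsMADS57 takes part in the control of tillering in rice by repressing a strigolactone receptor gene, and OsMADS27 and OsMADS25 are known from roots and nitrate. OsMADS57 read 4.34, 4.43 and 4.45 in WT_watered and 3.93, 3.57 and 4.12 in WT_stressed. The values were 5.69, 5.97 and 5.52 in IPT_watered, with 5.74, 5.51 and 5.59 in IPT_stressed. The lowest IPT array was more than 1 unit above the highest wild-type array.

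OsMADS57 was 2.50-fold higher in IPT_watered than in WT_watered (log2 1.32, SE 0.16, adjusted p = 0.000346). Under stress it was higher in PSARK::IPT plants by 1.74 (SE 0.16, adjusted p = 2.72e-05). There 2 of 3 WT_stressed arrays were below background, so that the size rests on values mostly at the background level used. All 3 lay above the 95th percentile of the bacterial controls alone, which averaged 3.17 in that group. The wild-type stress change was -0.53 (SE 0.16, adjusted p = 0.12), and it passed without WT_stressed replicate 3 (-0.66, adjusted p = 0.0492). With the GAPDH covariate the genotype differences were 1.43 (adjusted p = 0.11) and 1.88 (adjusted p = 0.0668), and neither passed. With actin the watered call was lost (1.08, adjusted p = 0.454).

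OsMADS27 read 2.77, 2.63 and 2.56 in WT_watered and 2.42, 2.46 and 3.09 in WT_stressed. The values were 3.63, 3.73 and 3.05 in IPT_watered, with 4.04, 3.63 and 3.61 in IPT_stressed. No wild-type array was above background, and 5 of 6 PSARK::IPT arrays were. Both genotype differences passed (adjusted p = 0.0237 under watering and 0.00222 under stress). The watered call was lost without WT_watered replicate 2 or 3 or IPT_watered replicate 1 or 2 (adjusted p 0.0593 to 0.099). No fold is given, because the background level used for the wild-type arrays lay at or above the PSARK::IPT means.

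OsMADS23 read 2.53, 2.52 and 2.58 in IPT_watered and 2.44, 2.27 and 2.29 in IPT_stressed, beside 2.79, 2.69 and 2.35 in WT_watered and 3.06, 2.91 and 3.05 in WT_stressed. No array was above background. Its wild-type arrays were all higher under stress (adjusted p = 0.139) and its PSARK::IPT arrays all lower. The difference of those stress effects did not pass (adjusted p = 0.255). Under stress it was called lower in PSARK::IPT plants (adjusted p = 0.00185). On its other, dimmer probe set the wild-type arrays were again all higher under stress. There the PSARK::IPT groups overlapped, with means of 1.62 watered and 1.65 stressed.

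OsMADS26, of the AGL12 clade, is known in rice as a negative regulator of resistance to pathogens and of drought tolerance. It read 4.41, 4.54 and 3.96 in WT_watered and 3.52, 3.38 and 2.13 in WT_stressed. The values were 6.07, 5.87 and 4.81 in IPT_watered, with 3.88, 4.84 and 4.18 in IPT_stressed. In wild type all stressed arrays lay below all watered ones, and in PSARK::IPT plants the groups overlapped at IPT_stressed replicate 2. All WT_stressed arrays were below background.

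The stress change of OsMADS26 in wild type did not pass (adjusted p = 0.13), and no size is given because WT_stressed was below background. The stress change in PSARK::IPT plants was -1.28 (SE 0.41, adjusted p = 0.34), which did not pass either. The watered genotypes differed by 1.28 (SE 0.41, adjusted p = 0.0461), a call lost without any 1 of WT_watered replicates 1, 2 and 3 and IPT_watered replicates 1 and 2 (adjusted p 0.0791 to 0.164), or after quantile normalization (1.03, adjusted p = 0.0979). The IPT_stressed mean lay 1.15-fold above the background level of WT_stressed, a lower bound from group means with no interval. Between the stressed genotypes OsMADS26 was called higher in PSARK::IPT plants (adjusted p = 0.0227, for the values without that bound). That call was lost without WT_stressed replicate 3 (adjusted p = 0.0725) or IPT_stressed replicate 2 (adjusted p = 0.0856), and with array weights (adjusted p = 0.0796).

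The genes at background were OsMADS3, OsMADS58, OsMADS13 and OsMADS21 of the AGAMOUS clade, OsMADS6 and OsMADS17 of the AGL6 clade, OsMADS29 and OsMADS30 of the B-sister clade, OsMADS33 of the AGL12 clade, and OsMADS25, besides those already named. Their means over 12 arrays ran from 1.99 for OsMADS30 to 2.53 for OsMADS17. OsMADS29 read 2.19, 2.08 and 1.88 in IPT_watered and 2.14, 2.40 and 2.19 in IPT_stressed, beside 2.54, 2.63 and 2.63 in WT_watered and 2.49, 2.78 and 2.46 in WT_stressed. This gene, which acts in the developing rice seed, was called lower in IPT_watered (adjusted p = 0.0153). OsMADS17 read 2.21, 2.56 and 2.38 in IPT_watered and 2.22, 1.96 and 2.26 in IPT_stressed, beside 2.60, 2.80 and 2.67 in WT_watered and 3.22, 2.52 and 2.94 in WT_stressed. OsMADS6 read 2.14, 2.07 and 2.10 in IPT_watered and 2.07, 1.96 and 2.21 in IPT_stressed, beside 2.38, 2.72 and 2.28 in WT_watered and 2.33, 2.66 and 2.40 in WT_stressed. For both, all 3 stressed PSARK::IPT arrays lay below all 3 stressed wild-type arrays. OsMADS17 (adjusted p = 0.0057) and OsMADS6 (adjusted p = 0.0455) were called lower in IPT_stressed, as was OsMADS20 (adjusted p = 0.00523). The call was lost in 12 of 16 alternatives for OsMADS6, which reversed in 1 more, in 4 of 16 for OsMADS20 and in 3 of 16 each for OsMADS17 and OsMADS29. Quantile normalization ended those of OsMADS17 (adjusted p = 0.0695) and OsMADS20 (adjusted p = 0.0912). These are differences of signals at background, so no fold is given.

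Dim probe sets as a whole read lower in the PSARK::IPT plants. Over all probe sets with a mean under 5, the median genotype difference was -0.28 under stress and -0.12 under watering, and over those with a mean of at least 5 it was 0.52 and 0.20. The standard deviation over all probe sets of an array was 2.06 ± 0.03 for watered and 1.95 ± 0.03 for stressed wild type, and 2.18 ± 0.01 for watered and 2.21 ± 0.01 for stressed PSARK::IPT plants. Against probe sets of like brightness, OsMADS1 at 2.19 under stress lay above the 95th percentile of 2.10 for means from 5 to 6, and OsMADS4 at -1.15 lay below the 5th percentile of -1.09 for means from 4 to 5. Under watering both lay inside: OsMADS1 at 1.20 below its 95th percentile of 1.64, and OsMADS4 at -0.68 above its 5th of -0.82. Under stress OsMADS27, OsMADS5 and OsMADS3 also lay above their 95th percentiles, and OsMADS57 at 1.74 lay below its own of 1.89. Under watering OsMADS14 and OsMADS7 lay above theirs and OsMADS29 below its 5th. A share of all probe sets lies outside these limits by definition.

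**Figure D5:**
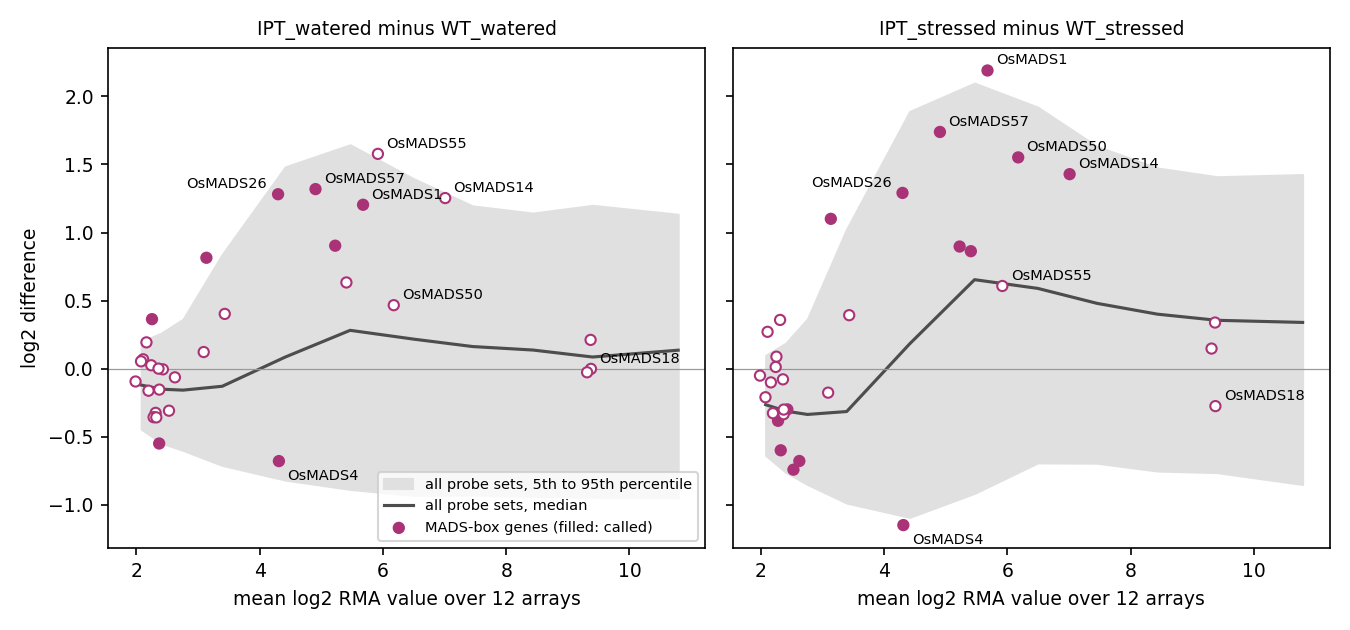
Log2 difference between the labelled genotypes (vertical axis) against the mean over 12 arrays (horizontal axis) for the 31 MADS-box genes (points, filled where called), with the median (line) and the 5th to 95th percentile (band) of all probe sets. Dim genes lie mostly below 0 under stress as the line does, and OsMADS1 and OsMADS4 are among the genes outside the band there.

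Other genes of the flowering pathway were taken from a list of 45 names, of which 15 were on the array after 3 homonyms had been dropped. None was called for stress in either genotype. Between the watered genotypes 3 were higher in PSARK::IPT plants (Ehd3, Hd3a, SE5) and 2 lower (Ghd8, Hd16). Between the stressed genotypes 6 were higher (Ehd3, Hd3a, PHYC, SE5, PHYB, Ehd4) and 2 lower (Ghd8, SPL14, the latter below background on all 12 arrays). These calls were 33.3% of the 15 under watering and 53.3% under stress, against 19.2% and 46.1% of all probe sets. The list's median difference was 0.03 under watering and 0.30 under stress, against -0.08 and -0.16 for all probe sets.

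Hd3a, the florigen, read 6.32, 6.52 and 5.90 in WT_watered and 5.90, 4.73 and 3.95 in WT_stressed. The values were 7.95, 8.78 and 8.52 in IPT_watered, with 7.50, 7.84 and 8.21 in IPT_stressed. All IPT arrays lay above all wild-type arrays. It was higher in PSARK::IPT plants by 2.17 under watering (SE 0.41, adjusted p = 0.00384) and by 2.99 under stress (SE 0.41, adjusted p = 0.000222), and its wild-type stress change of -1.38 did not pass (adjusted p = 0.114).

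Ehd3, which promotes flowering in rice, was higher in PSARK::IPT plants by 1.74 under watering (adjusted p = 0.0023). Under stress it was higher too (adjusted p = 0.000112), with a WT_stressed mean of 3.46 that lay below background. Ghd8, which delays flowering in long days, was lower by -1.19 (adjusted p = 0.00295) and -0.90 (adjusted p = 0.00577). SE5, an enzyme of phytochrome chromophore synthesis, was higher by 1.25 under watering (adjusted p = 0.0169), and the photoreceptor gene PHYC by 0.74 under stress (adjusted p = 0.00667). PHYA in wild type changed by -0.52 with stress (adjusted p = 0.121) and PHYB in PSARK::IPT plants by 0.51 (adjusted p = 0.476), neither of which passed. For the difference of stress effects the smallest p was that of Ehd4, at 0.75 (adjusted p = 0.255).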

How the data were processed

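The authors deposited log2 values from RMA, as the submitters' processing notes state. RMA subtracts background, equalises the arrays and combines the probes of a set; its software is not given in the sources used here. Their table held 57381 probe sets. Of these, 123 controls and 64 reporters were kept out, and 57194 were tested with no filter. Names came from the array annotation and a RefSeq table (assembly ASM3414082v1, names only): 22436 probe sets had 1 gene, 95 several and 34663 none listed. Differences were fitted with limma 3.58.1 in R 4.3.3 (lmFit, eBayes), with 1 mean per group over all 12 arrays and Benjamini-Hochberg adjustment over all probe sets, called under 0.05. The script was tested on simulated data. Folds against a group at background are lower bounds from group means, with no interval. The number of arrays limits the precision, and an exact test of 3 arrays against 3 was not used. Named with per-array values were OsMADS1, called members, the 8 highest by mean and the 8 widest in range of group means. The members and lists were chosen with earlier results of these data known. Alternatives varied scaling, filter, eBayes options, array weights, a replicate block, GAPDH and actin covariates, the probe set and the arrays included.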

Additional observations from a re-analysis of the deposited data

Results flagged for a closer look

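A reporter probe set for a foreign sequence, K01193, gave a signal on some arrays. No fitted comparison of the MADS-box genes used this reporter, but it was among the 106 probe sets that set the background level. Its mean was 8.98 in WT_stressed and 10.16 in IPT_stressed, against 2.08 in IPT_watered and 3.48 in WT_watered, so the high and low arrays divided by labelled watering, in both labelled genotypes. A reporter for AF292559 divided in the same way, with means of 7.68 in WT_stressed and 7.97 in IPT_stressed against 2.11 in IPT_watered and 2.61 in WT_watered.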

How the results depend on the processing

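For 39 single results, 653 values were computed under alternatives. Of these, 520 kept direction and side of the threshold, 114 lost the call, 15 gained one and 4 reversed. A single result was a comparison of a named member that was called, or had an unadjusted p under 0.05, in the main fit. Results called in neither fit count among the 520. Calls gained outside these results are not counted. After quantile normalization OsMADS2, OsMADS7 and OsMADS3 were also called between the stressed genotypes. With array medians equal, OsMADS56 and OsMADS22 were called there as well as those genes. With the GAPDH covariate OsMADS6 reversed, at 0.069 and 0.17 in the watered and stressed genotype comparisons, as did OsMADS55 at -0.091 under watering, and at -0.54 with actin. With the GAPDH covariate the calls fell to 0 members in both genotype comparisons and to 0 in the F test, whose use there was added after seeing the data, and the calls over all probe sets to 25, 84, 39, 129 and 0 in the 5 comparisons. With the other GAPDH control, added after seeing the data, 1 member (OsMADS1) was called for stress in wild type. With actin, added likewise, 0 were called under watering, 3 under stress and 2 in the F test. A minimum mean of 5, which removes most members, left 2 members called under watering, 5 under stress and 5 in the F test. Quantile normalization left 9 under stress (7 higher, or 77.8% against 57.1% as reported; 48.2% against 42% of all calls) and 8 in the F test. With array medians equal, 13 of 16 under stress were higher (81.2%; 70.3% of all calls), 7 of 8 under watering (87.5% against 75%; 69.8% against 53.6% of all calls), and OsMADS1 was called for stress in wild type, 1 member. That scaling moved the median of all probe sets by 0.23 under stress and 0.13 in the difference of stress effects. Array weights gave 4 members for stress in PSARK::IPT plants (OsMADS18, OsMADS50, OsMADS26, OsMADS5), where 8.69% of all probe sets were called against 0.177%. Leaving out 1 of the 6 arrays compared gave 0 to 1 members for stress in wild type, 0 to 1 in PSARK::IPT plants, 3 to 5 for genotype under watering and 10 to 14 under stress. Over all 12 arrays left out in turn, the last 2 ranges were 3 to 9 and 10 to 15. The brightest foreign probe set as background left 4, 2, 11 and 0 members above it in WT_watered, WT_stressed, IPT_watered and IPT_stressed. Same-numbered replicates were not treated as pairs in the main fit. Their deviations correlated weakly, at -0.10 to 0.19, over 0.1 in 9 of 18 pairs, and differently numbered arrays were not compared. With the replicate block, 0, 0, 7, 12 and 0 members were called, and 60, 287, 10926, 26304 and 0 of all probe sets. Signal over background limits the 16 members never above it, a count that depends on which foreign probe sets set the level.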
